A study of Mus musculus with 6 samples.

Results

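The genes described here serve the piRNA pathway of germ cells, together with proteins of the tudor domain family that work in it. They were chosen by symbol, as every probe set whose platform annotation gives exactly 1 gene symbol equal to Piwil2, Piwil4, Tdrd1, Tdrd5, Tdrd6, Tdrd9, Mael, Mov10l1, Asz1 or Gtsf1. The rule found 9 of the 18194 genes that the array measures by a probe set with 1 symbol, through 12 of its 45101 probe sets, and Tdrd6 had none. Transcript levels were read on 1-colour oligonucleotide arrays from whole testes of mouse embryos at E13.5, 3 Dmrt1 null and 3 control samples, all outcrossed to the 129S6/SvEvTac strain. The null samples are Dmrt1 (-/-) by title and description, whereas their genotype entry reads Dmrt(flox/flox), and no Cre is named. The control samples are titled wt, whereas their descriptions and genotype entries give Dmrt1 (+/-), so they may carry 1 null allele. Each sample is labelled as a biological replicate, and the labels do not say whether embryos were pooled.

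PIWI-interacting RNAs, or piRNAs, are small RNAs of the germ line that are bound by PIWI proteins and guide them to transposon transcripts. In fetal male germ cells of the mouse the cytoplasmic PIWI protein Piwil2 cuts such transcripts, and the nuclear PIWI protein Piwil4 directs DNA methylation to transposon sequences. Tudor domain proteins bind methylated arginines of PIWI proteins and hold them in granules next to mitochondria, where piRNAs are made. Dmrt1, the gene removed in the null testes, encodes a DM domain transcription factor of Sertoli cells and germ cells.

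The Dmrt1 probe set gave intensities of 48.4, 26.9 and 23.8 in null replicates 1, 2 and 3, against 696, 1030 and 796 in control replicates 1, 2 and 3, which follows the labels. Array medians lay at 14.6 to 14.8, so values near or below that level are dim. The Sertoli cell marker Amh had 133 to 166 in null and 140 to 153 in control testes, and the germ cell marker Dppa5a had 4500 to 4890 in null and 4250 to 4990 in control testes. Of the cell type markers listed for testis, 21 of 23 for germ cells and 12 of 12 for Sertoli cells passed the filter on low values. These lists were chosen with earlier results of these data known. Nanos3, Insl3 and Lhcgr had no probe set with 1 symbol. On the first principal component, which held 44.9% of the variance, null replicate 1 and control replicate 2 lay at -31.8 and -33.6, against 19.3 and 27.1 for null replicates 2 and 3 and 22.8 and -3.79 for control replicates 1 and 3. Control replicate 2 and null replicate 1 thus lay apart from the other arrays of their own groups, and control replicates 1 and 3 lay apart from each other. The differences of the members are given with and without control replicate 2, in which their values were highest, and with other arrays left out where that moved them. With 3 arrays per group the precision is limited, and p-values measure the spread between these samples.

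No piRNA pathway gene passed the test for a difference between null and control testes. By limma with Benjamini-Hochberg adjustment, 0 of the 9 tested probe sets were called, against 6 of 22082 probe sets tested over the whole array (0.0272%). At an unadjusted p under 0.05, 2 of the 9, Piwil2 and Tdrd5, were lower in null testes, as were 3.28% of all tested probe sets, and none of the 9 was higher. The mean of the null testes lay below that of the control testes at 9 of 9 probe sets, against 48.1% of all tested probe sets. Over the 7 genes tested, with the brightest probe set of each, the median log2 difference was -0.60, against 0.03 over all 11874 genes tested. The groups overlapped at each of the 9, while 6.06% of all tested probe sets had null values entirely below the control values. With control replicate 2 left out the null mean was lower at 5 of the 9 and higher at 4, 0 were called and 0 had an unadjusted p under 0.05, against 2.77% of all tested probe sets lower at that p. With control replicate 1 left out instead it was lower at 9 of the 9, and 6 of the 9 had an unadjusted p under 0.05, against 2.82% of all tested probe sets lower at that p, with 0 called and limma adjusted p of 0.803 to 0.952. The differences then ran from -2.74 and -1.77 for the Gtsf1 probe sets, -2.06 for Tdrd5 and -1.73 for Piwil4 to -0.40 for Mov10l1, with Piwil2 at -0.79. Without null replicate 1, 2 or 3 or control replicate 3 the null mean was lower at 9 of the 9, with 1, 1, 0 and 1 of them at an unadjusted p under 0.05, against 3.72%, 4.33%, 2.16% and 2.21% of all tested probe sets, and 0 called. Because whole testes were measured, fewer germ cells and less RNA per germ cell cannot be told apart.

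**Figure D1:**
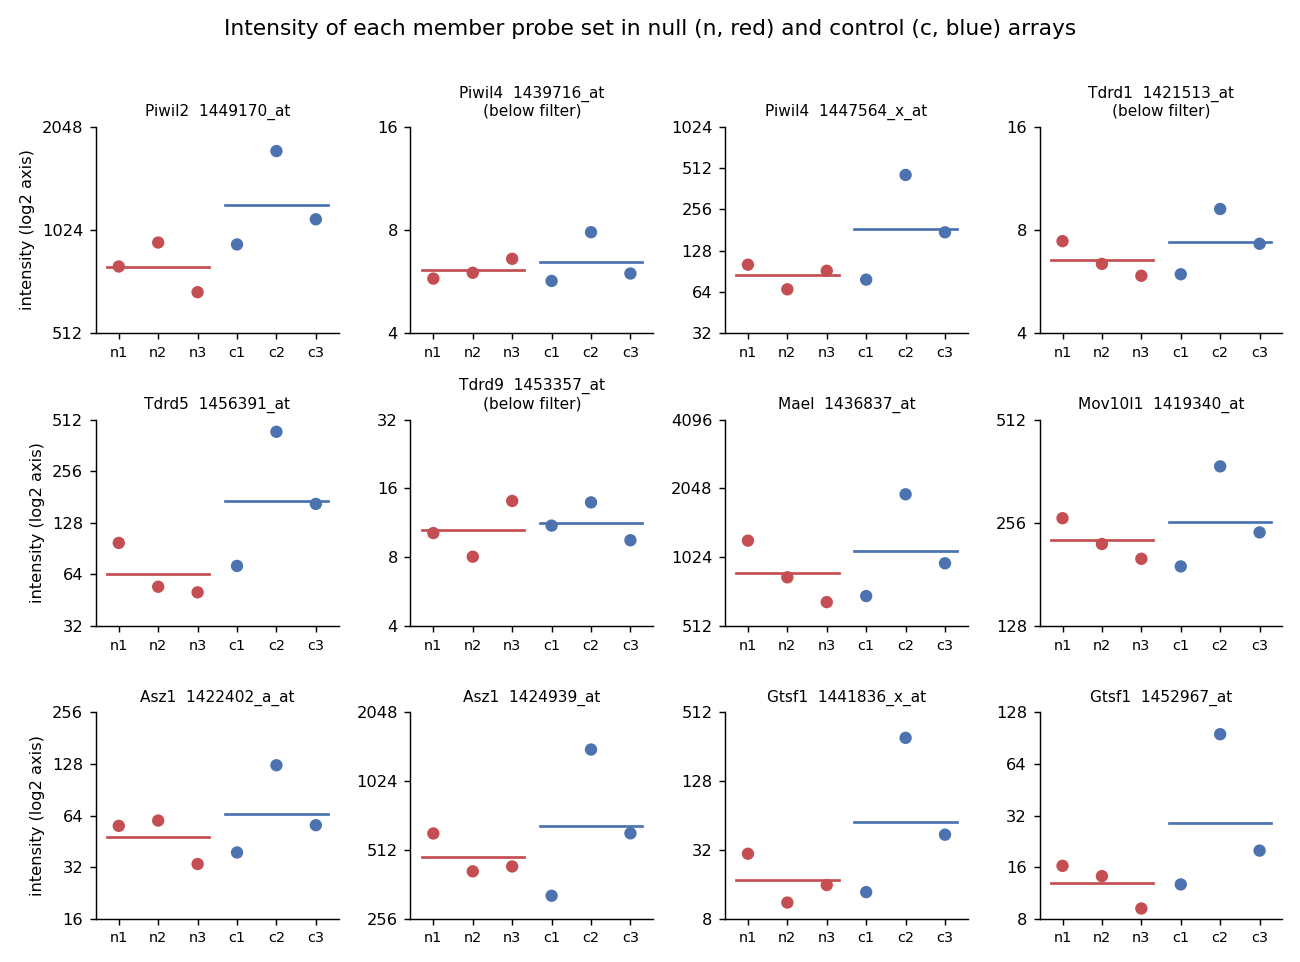
Intensity on a log2 axis of the 12 probe sets in null replicates 1 to 3 (n1 to n3, red points) and control replicates 1 to 3 (c1 to c3, blue points), with horizontal lines at the geometric mean of each group. Control replicate 2 is the highest point in 11 of the 12 panels.

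Piwil2 encodes the PIWI protein that is already present in germ cells of the fetal testis. Its probe set 1449170_at gave 801, 941 and 674 in null replicates 1, 2 and 3, against 929, 1740 and 1100 in control replicates 1, 2 and 3. Null replicate 2 lay above control replicate 1, so the groups overlapped by those arrays. Null minus control came to -0.60 on the log2 scale (standard error 0.23, 95% confidence interval -1.13 to -0.07), which is 1.52-fold lower, and the limma adjusted p was 0.773. Without control replicate 2 it was -0.34, with an interval of -0.73 to 0.04 and a limma adjusted p of 0.796.

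Piwil4, the nuclear PIWI protein, had probe sets that behaved differently. Probe set 1447564_x_at gave 101, 66.8 and 91.2 in null replicates 1, 2 and 3, against 78.6, 456 and 174 in control replicates 1, 2 and 3. Control replicates 2 and 3 lay above all null testes, whereas control replicate 1 lay inside their range. The log2 difference was -1.11 (standard error 0.55, interval -2.39 to 0.16, limma adjusted p = 0.773), and -0.46 without control replicate 2. The suffix of this probe set (_x_at) marks probes that may also match other transcripts. The other, 1439716_at, stayed below the array medians in every array, at 5.77 to 6.59 in null and 5.68 to 7.88 in control testes, and was not tested.

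Tdrd5, a tudor protein needed for transposon silencing and for germ granules of later male germ cells, had the largest difference among the members with a single tested probe set. Probe set 1456391_at gave 97.7, 54.2 and 50.3 in null replicates 1, 2 and 3, against 71.7, 435 and 165 in control replicates 1, 2 and 3. Control replicate 1 fell between the null testes, and the other controls lay above them all. The log2 difference was -1.42 (standard error 0.59, interval -2.79 to -0.06), which is 2.68-fold lower, and the limma adjusted p was 0.773. Without control replicate 2 it was -0.76, with an interval of -1.73 to 0.21 and a limma adjusted p of 0.796.

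The other tudor genes of the set were dim. Tdrd1, the scaffold that binds Piwil2 in the granules next to mitochondria, gave 7.42, 6.37 and 5.88 in null replicates 1, 2 and 3, against 5.94, 9.21 and 7.29 in control replicates 1, 2 and 3. Tdrd9, an RNA helicase that works with Piwil4, gave 10.2, 8.04 and 14.1 in null replicates 1, 2 and 3, against 11.0, 13.9 and 9.49 in control replicates 1, 2 and 3. Both stayed below the array medians in all 6 arrays, failed the filter and were not tested. Their log2 differences were -0.17 for Tdrd1 and -0.11 for Tdrd9, and Tdrd9 was the member whose highest value was not in control replicate 2 but in null replicate 3.

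Gtsf1, a small zinc finger protein that binds PIWI proteins and aids their cutting of target RNA, varied most between arrays. Probe set 1441836_x_at gave 29.7, 11.1 and 15.8 in null replicates 1, 2 and 3, against 13.7, 307 and 43.6 in control replicates 1, 2 and 3. Control replicate 2 lay 19.4-fold above the median of the other 5 arrays. As for Piwil4, the suffix of this probe set (_x_at) marks probes that may also match other transcripts. The log2 difference was -1.71 (standard error 0.99, interval -3.99 to 0.57, limma adjusted p = 0.776), and -0.50 without control replicate 2. Probe set 1452967_at also had control replicate 2 on top, with 16.3, 14.2 and 9.19 in null replicates 1, 2 and 3 and 12.7, 95.6 and 20.0 in control replicates 1, 2 and 3. Its log2 difference was -1.17 (standard error 0.67, limma adjusted p = 0.774), and -0.31 without control replicate 2. It passed the filter through that array, since its mean log2 value over the other 5 was 3.81 and the filter was set at 4.

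Asz1, a scaffold on the outer membrane of mitochondria on which piRNA factors assemble, had a pair of probe sets with like patterns. Probe set 1424939_at gave 605, 413 and 434 in null replicates 1, 2 and 3, against 323, 1410 and 606 in control replicates 1, 2 and 3. Probe set 1422402_a_at gave 55.8, 59.9 and 33.4 in null replicates 1, 2 and 3, against 39.0, 126 and 56.3 in control replicates 1, 2 and 3. In both, control replicate 2 was highest. Control replicates 1 and 3 lay inside the null range for 1422402_a_at, whereas for 1424939_at control replicate 1 lay below all null testes and control replicate 3 just above them. The log2 differences were -0.45 ± 0.46 and -0.44 ± 0.42 (standard error, n = 3 per group), at limma adjusted p of 0.854 and 0.844. These became 0.11 and 0.04 without control replicate 2.

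Mael, an HMG-box protein of germ granules, and Mov10l1, an RNA helicase that feeds precursor RNAs into piRNA production, had small differences. Mael probe set 1436837_at gave 1210, 836 and 651 in null replicates 1, 2 and 3, against 692, 1930 and 963 in control replicates 1, 2 and 3. Mov10l1 probe set 1419340_at gave 264, 222 and 201 in null replicates 1, 2 and 3, against 191, 374 and 240 in control replicates 1, 2 and 3. For both genes null replicate 1 was the second highest array. The log2 differences were -0.32 ± 0.37 for Mael and -0.18 ± 0.25 for Mov10l1 (standard error, n = 3 per group), at limma adjusted p of 0.870 and 0.890. Both were at 0.09 without control replicate 2.

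**Figure D2:**
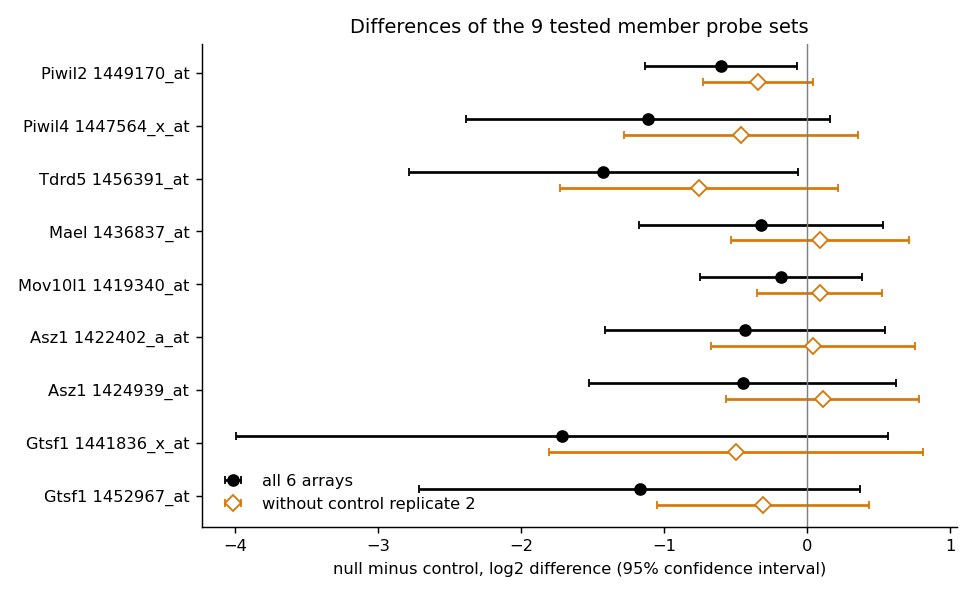
Log2 difference of null minus control for the 9 tested probe sets, with limma 95% confidence intervals, from all 6 arrays (filled circles) and without control replicate 2 (open diamonds). With all arrays the points lie between -1.71 and -0.18, and without that array they lie between -0.76 and 0.11, with every interval crossing 0.

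The 9 tested probe sets had their highest values in the same array. Control replicate 2 was the highest array at 9 of the 9 tested probe sets, against 16.3% of all tested probe sets. It lay at least 2-fold above the median of the other 5 arrays at 7 of the 9, against 1.19% of all tested probe sets. These 7 belong to Gtsf1 (19.4-fold and 6.73-fold), Tdrd5 (6.07-fold), Piwil4 (5.00-fold), Asz1 (3.25-fold and 2.26-fold) and Mael (2.31-fold), while Piwil2 and Mov10l1 were at 1.87-fold and 1.68-fold. Gtsf1 1452967_at, at 6.73-fold, passed the filter on low values only through control replicate 2, and without it the count is 6 of 8. The array next highest was control replicate 3 at 6 of the 9 probe sets, null replicate 1 at 2 and null replicate 2 at 1. The lowest array was null replicate 3 at 5, null replicate 2 at 2 and control replicate 1 at 2. The standard deviation of log2 values was larger in the controls than in the null testes at 9 of the 9, against 41.5% of all tested probe sets. The high values of control replicate 2 enter that of the controls. Without that array it was below the null value for Piwil2 (0.17 against 0.24), Mael (0.34 against 0.45) and Asz1 1422402_a_at (0.37 against 0.46). At the other tested member probe sets it stayed above. These counts were made after the values were seen and describe these 6 arrays.

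**Figure D3:**
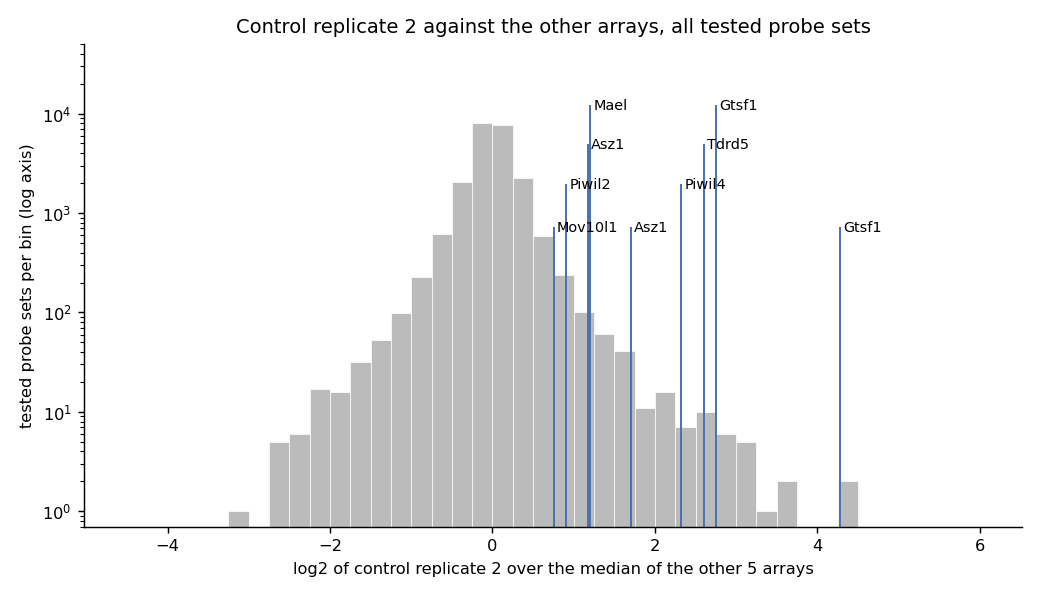
Histogram on a log axis of the log2 ratio of control replicate 2 to the median of the other 5 arrays for the 22082 tested probe sets (grey bars), with blue lines at the 9 member probe sets. All 9 lie to the right of the centre, from 1.68-fold for Mov10l1 to 19.4-fold for Gtsf1.

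The promoters are shown of the 5 genes that lay at least 2-fold higher in control replicate 2. The genes were picked by that array, so their shared high value there follows from the choice. The order of the other arrays differed between them. Null replicate 2, for instance, was second highest at Asz1 1422402_a_at and lowest at Piwil4 1447564_x_at. The windows hold the 250 bases before the annotated start, from RefSeq (GRCm38.p6), and 8 of the 10 genes had a window in that table. Where a gene has several annotated starts, the first listed is shown. Capitals mark matches on either strand to CACGTG (the E-box), GCGCANGCG (the NRF1 element), TCCCGC (the E2F6 element) and ACANTGT (the core bound by DMRT1), and no marked match overlaps another.
Tdrd5, chr1:156303349-156303598, minus strand: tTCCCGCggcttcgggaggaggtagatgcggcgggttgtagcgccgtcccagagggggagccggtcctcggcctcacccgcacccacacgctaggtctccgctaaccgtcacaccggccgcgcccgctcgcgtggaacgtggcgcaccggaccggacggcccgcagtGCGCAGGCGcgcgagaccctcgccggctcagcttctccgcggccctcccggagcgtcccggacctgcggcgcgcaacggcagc
Piwil4, chr9:14740673-14740922, minus strand: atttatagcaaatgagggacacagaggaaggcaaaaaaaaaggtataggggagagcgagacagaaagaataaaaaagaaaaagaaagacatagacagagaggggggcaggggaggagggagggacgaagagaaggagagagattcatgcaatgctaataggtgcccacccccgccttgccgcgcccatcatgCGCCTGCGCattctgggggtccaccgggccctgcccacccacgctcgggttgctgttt
Gtsf1, chr15:103430428-103430677, minus strand: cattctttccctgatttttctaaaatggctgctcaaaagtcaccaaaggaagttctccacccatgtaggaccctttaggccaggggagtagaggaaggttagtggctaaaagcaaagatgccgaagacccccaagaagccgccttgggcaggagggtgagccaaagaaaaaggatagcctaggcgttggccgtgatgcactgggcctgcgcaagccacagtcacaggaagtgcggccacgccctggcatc
Asz1, chr6:18109062-18109311, minus strand: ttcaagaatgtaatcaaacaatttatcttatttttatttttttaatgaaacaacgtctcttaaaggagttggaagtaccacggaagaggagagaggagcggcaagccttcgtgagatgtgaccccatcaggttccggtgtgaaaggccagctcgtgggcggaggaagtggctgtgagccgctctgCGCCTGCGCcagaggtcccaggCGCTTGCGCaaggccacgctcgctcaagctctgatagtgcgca
Mael, chr1:166238745-166238994, minus strand: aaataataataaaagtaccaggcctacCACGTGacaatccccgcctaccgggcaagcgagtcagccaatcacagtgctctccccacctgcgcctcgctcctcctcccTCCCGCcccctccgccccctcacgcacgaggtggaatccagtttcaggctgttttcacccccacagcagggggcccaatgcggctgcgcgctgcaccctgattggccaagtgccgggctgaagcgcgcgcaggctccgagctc

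The 4 motifs were chosen after the windows were read, so member counts beside the shares of all genes test no enrichment. The NRF1 element, named for a transcription factor of housekeeping and germ line promoters, matched in windows of 5 of the 8 genes, Tdrd5, Piwil4, Asz1, Mov10l1 and Tdrd1. It was found in 5.86% of the 27025 genes with a window. It started at position -83 relative to the annotated start in Tdrd5, at -58 in Piwil4, and at -65 and -43 in Asz1. The E-box matched in windows of 4 of the 8 genes, Mael, Mov10l1, Tdrd1 and Tdrd9, against 6.86% of all genes, and the E2F6 element in Mael and Tdrd5, against 18.8%. The DMRT1 core was not among the letters of any of the 11 member windows and was found in 7.43% of all genes. Among the 12417 windows with at least 10 CpG dinucleotides, 7 of them of members, the NRF1 element was found in 12.7% (5 of the 7), the E-box in 9.37% (4 of the 7), the E2F6 element in 37.3% (2 of the 7) and the DMRT1 core in 2.2% (0 of the 7). The Gtsf1 window, whose gene varied most between arrays, held none of the 4 motifs and 7 CpG dinucleotides, against 40 in Tdrd5, 18 in Mael, 15 in Asz1, 10 in Piwil4 and a median of 6 over all 32851 windows. A match of letters is a description of the window and does not show that a factor binds there.

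Other genes of the piRNA pathway, taken from a list of 23, were not called either. Of this list 16 genes passed the filter, 0 were called and 0 had an unadjusted limma p under 0.05. The null mean was lower at 16 of the 16, with a median log2 difference of -0.17, against a median of 0.03 over the 11874 genes tested and 43.7% of them lower. Without control replicate 2 it was lower at 8 of the 16 with a median of -0.00072. The RNA helicase Ddx4, which works with PIWI proteins in the amplification of piRNAs, gave 1870, 1540 and 1500 in null replicates 1, 2 and 3, against 1470, 2620 and 1760 in control replicates 1, 2 and 3. Its log2 difference was -0.22 ± 0.20 (standard error, n = 3 per group, limma adjusted p = 0.832). Pld6, a mitochondrial nuclease that cuts piRNA precursors, and Tdrkh, a tudor protein of mitochondria, had differences of -0.19 and -0.09. Piwil1, the PIWI protein of later meiotic and haploid cells, was below the filter at 4.07 to 5.17 in null and 5.28 to 7.76 in control testes.

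Of the 16 tested genes of this list 13 had their highest value in control replicate 2, as the members did, against 16.3% of all tested probe sets. Morc1, Exd1, Tdrd12, Tex19.1 and Prmt5 were chosen after their values were seen. Gtsf1l, a relative of Gtsf1, gave 26.8, 15.3 and 13.1 in null replicates 1, 2 and 3, against 19.4, 121 and 32.5 in control replicates 1, 2 and 3. Its log2 difference was -1.28 ± 0.62 (standard error, n = 3 per group, limma adjusted p = 0.773). Morc1, a chromatin factor of transposon silencing, had 45.6 to 50.1 in null testes, and 36.4, 230 and 51.3 in control replicates 1, 2 and 3. Control replicate 2 lay 4.88-fold above the median of the other 5 arrays for Morc1, 3.22-fold for Exd1, 2.89-fold for Tdrd12 and 2.41-fold for Tex19.1. In all, 5 of the 16 genes lay at least 2-fold above in that array, against 1.19% of all tested probe sets. The arginine methyltransferase Prmt5 and the chaperone Hsp90aa1, which are used in many cell types, had differences of -0.03 and -0.02 at their brightest probe sets. Dnmt3a and Wdr77 of the same list were at -0.15 and -0.09 at theirs. The probe sets of smallest p of Hsp90aa1 and Wdr77 were at -0.20 and -0.36 (limma adjusted p = 0.774 for both).

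In the wider tudor family, of 11 genes 11 were tested, 0 were called and 0 had an unadjusted limma p under 0.05, with 7 lower and 4 higher in null testes and a median log2 difference of -0.07. Stk31, a tudor and kinase domain protein of germ cells, gave 1120, 772 and 733 in null replicates 1, 2 and 3, against 676, 1910 and 1150 in control replicates 1, 2 and 3. Its difference was -0.41 ± 0.35 (standard error, n = 3 per group, limma adjusted p = 0.824), and this gene was chosen after its values were seen. The methyltransferase Setdb1 and the splicing factor Smndc1, both of most cells, had brightest probe sets at -0.07 and -0.10. Their probe sets of smallest p, Setdb1 1416670_at and Smndc1 1452999_at, were at -0.58 and -0.26 (limma adjusted p = 0.773 for both). Akap1, an anchoring protein of mitochondria, had null values of 93.4 to 109 entirely above control values of 85.0 to 87.2. Its log2 difference was 0.22 (limma adjusted p = 0.778). Smndc1 1452999_at had null values of 769 to 803 entirely below control values of 815 to 1050. Of the 18 tested tudor probe sets 1 was entirely higher and 1 entirely lower in null testes, against 6.73% and 6.06% of all tested probe sets. Control replicate 2 was the highest array at 6 of the 11 genes, against 16.3% of all tested probe sets. It lay at least 2-fold above the median of the other 5 arrays at 2 of the 11, against 1.19%. Without control replicate 2 the median of the tudor list was 0.0042.

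Germ cell markers outside the pathway were set beside the members as a measure of germ cell transcripts. Of 21 tested genes 12 were lower and 9 higher in null testes, with a median log2 difference of -0.07, and 0 were called. Without control replicate 2, 9 were lower and 12 higher, and the median was 0.08. Their summed intensity was 21472 to 23604 in null and 21274 to 26909 in control testes, with the highest sum in control replicate 2. The median level of these markers, centred on the 6 arrays, was -0.02, 0.03 and -0.11 in null replicates 1, 2 and 3, against -0.05, 0.15 and -0.12 in control replicates 1, 2 and 3. The same measure for the 7 tested piRNA genes was -0.08, -0.43 and -0.54 in null replicates 1, 2 and 3, against -0.56, 1.34 and 0.16 in control replicates 1, 2 and 3. Relative to the germ cell markers of the same array, the median difference of the members was -0.58, against -0.60 without that step, an alternative added after seeing the data. Dazl, an RNA-binding protein of germ cells, had 2760 to 3330 in null and 3030 to 3750 in control testes at its brightest probe set.

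Control replicate 2 was the highest array at 10 of the 21 tested germ cell markers, against 16.3% of all tested probe sets. It lay at least 2-fold above the median of the other 5 arrays at 4 of the 21, against 1.19%. Yet not every germ cell transcript was high in control replicate 2. Tfap2c, a factor of early germ cells, gave at its brightest probe set 734, 1120 and 1420 in null replicates 1, 2 and 3, against 884, 315 and 519 in control replicates 1, 2 and 3. Its log2 difference was 1.00 ± 0.37 (standard error, n = 3 per group, limma adjusted p = 0.773). Dppa2, Lin28a and Dazl went the other way at their probe sets of smallest p. Their differences there were -0.47, -0.51 and -0.48 (limma adjusted p = 0.773, 0.774 and 0.773). For Dppa2 and Lin28a null values lay entirely below control values there, whereas at the other probe set of each the groups overlapped. These were 2 of the 28 tested germ cell marker probe sets, against 6.06% of all tested probe sets with null values entirely below control values. Rhox9, a homeobox gene of early germ cells and somatic cells of the gonad, gave 34.9, 142 and 165 in null replicates 1, 2 and 3, against 106, 25.9 and 33.5 in control replicates 1, 2 and 3. Tfap2c and Rhox9 had their lowest value in the array in which the piRNA genes were highest. Sycp3, a protein of the meiotic chromosome axis, followed the members, with 360 to 452 in null testes and 389, 1250 and 407 in control replicates 1, 2 and 3. Rhox9 and Sycp3 were chosen after their values were seen.

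Of the markers of other cell types, those of endothelial and erythroid cells were lowest in control replicate 2. The centred medians of Sertoli and macrophage markers in that array were -0.02 and 0.05. Endothelial markers, 8 of 8 tested, had centred medians of -0.55, 0.27 and 0.46 in null replicates 1, 2 and 3, against 0.36, -1.14 and 0.34 in control replicates 1, 2 and 3. Their summed intensity was 1600 to 3246 in null and 1139 to 3258 in control testes, lowest in control replicate 2. Erythroid markers, 5 of 7 tested, summed to 13339 to 17740 in null and 10767 to 18727 in control testes, also lowest in control replicate 2. Fetal Leydig markers, 4 of 6 tested, summed to 3204 to 12950 in null and 4024 to 10320 in control testes. All 4 were lower in null testes, with a median log2 difference of -0.53 and of -0.28 without control replicate 2, and 0 were called. Their centred medians were 1.26, -0.65 and -1.40 in null replicates 1, 2 and 3, against -0.75, 0.76 and 0.78 in control replicates 1, 2 and 3. Macrophage markers, 8 of 8 tested, summed to 734 to 793 in null and 890 to 1307 in control testes. Of these 7 were lower and 1 higher in null testes, with a median log2 difference of -0.31 and of -0.32 without control replicate 2. The brightest of them, Mrc1, had 505 to 533 in null and 642 to 968 in control testes. Sertoli markers, 12 of 12 tested, summed to 19415 to 20869 in null and 21700 to 23984 in control testes. Of the 12 Sertoli markers 5 were lower and 7 higher in null testes, with a median log2 difference of 0.03 and of -0.02 without control replicate 2. Among the Sertoli markers Cst9 fell, with 860 to 1180 in null and 2940 to 3460 in control testes (limma adjusted p = 0.0271), and no other listed gene was called. Aard, also part of the Sertoli sum, had 3920 to 4580 in null and 5530 to 6050 in control testes (limma adjusted p = 0.474). As a sign of RNA quality, Actb probe sets near the transcript's 3' end read above those near its 5' end. The ratio was 1.96, 1.91 and 2.75 in null replicates 1, 2 and 3. In control replicates 1, 2 and 3 it was 1.98, 1.92 and 2.15. Null replicate 3, with the highest ratio, was also the lowest array at 5 of the tested member probe sets. Null replicate 2 and control replicate 1 were lowest at 2 each. The part of these markers and of RNA quality in the levels of the piRNA genes was not tested.

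**Figure D4:**
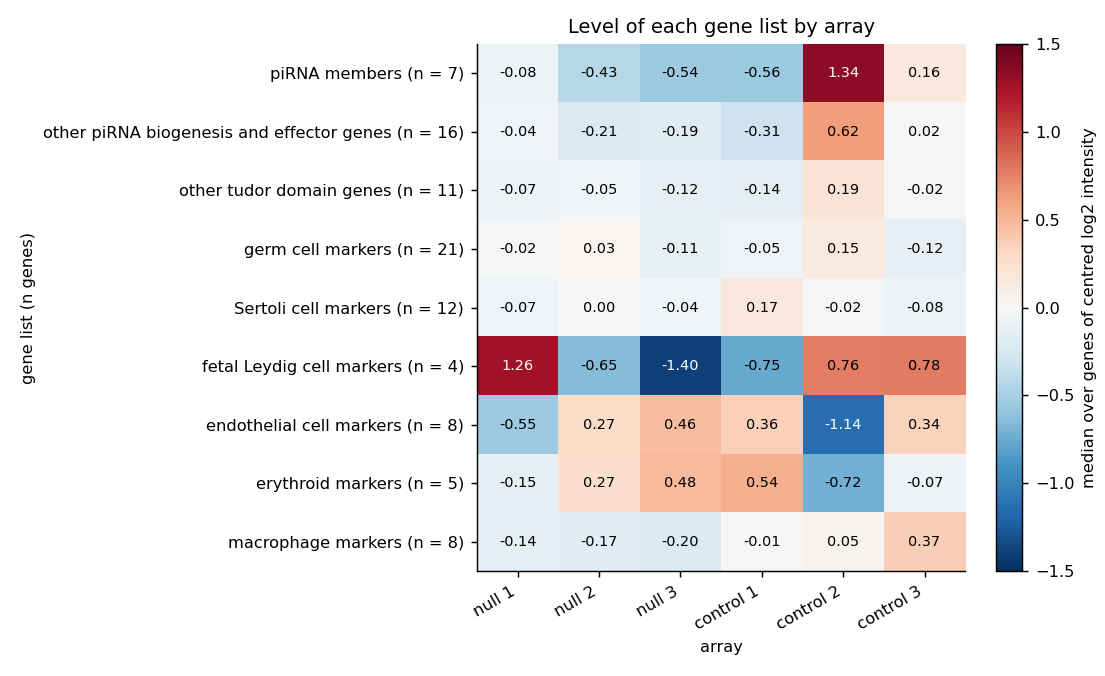
Median over the tested genes of each list of log2 intensity centred on the 6 arrays, for null replicates 1 to 3 on the left and control replicates 1 to 3 on the right, with red above and blue below the mean of the arrays. The piRNA members reach 1.34 in control replicate 2, where endothelial markers are at -1.14 and germ cell markers at 0.15.

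The genes outside these lists whose profiles lay closest to that of the members were found by the root mean square difference of centred log2 values over the 6 arrays. The 5 closest to the median profile of the 7 tested members were Cd274, an immune checkpoint ligand, at 0.044, Syn1, a synaptic vesicle protein, at 0.086, Dbndd2 at 0.17, Fmn1, a formin, at 0.17, and Scml2, a Polycomb protein of male germ cells, at 0.18. Scml2 gave 98.1, 95.8 and 94.5 in null replicates 1, 2 and 3, against 91.9, 272 and 116 in control replicates 1, 2 and 3. Cd274 and Syn1 were near the array medians outside control replicate 2, at 11.2 to 17.5 and 11.4 to 21.4. For Piwil2, the member of smallest p, the closest were Zdhhc23, Sdc4 and Fam184b, at 0.081, 0.10 and 0.11. Among the members' own probe sets, Asz1 1424939_at lay closest to the median profile at 0.15 and Gtsf1 1441836_x_at farthest at 0.97.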

How the data were processed

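Per the labels' protocols, E13.5 testes were kept in RNAlater before RNA extraction, and 100 ng of RNA per sample went into NuGen Ovation amplification and biotin labelling. The deposited values are linear intensities. The authors computed them by GCRMA, per the submitters' processing notes, with no version stated there. This method corrects background and normalizes between arrays, so folds between dim values depend on it. Arrays were grouped by title, 3 null and 3 control.

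Intensities were taken to log2, and 22082 probe sets with a mean of at least 4 were kept. The model, from limma 3.58.1 (R 4.3.3), had genotype group as its single term and an eBayes intensity trend. Tests were two-sided and p-values were adjusted by Benjamini-Hochberg over every probe set kept, with calls at an adjusted p under 0.05. Of the 45101 probe sets, 34958 had 1 gene symbol in GEO's platform annotation, 932 several and 9211 none. Per gene, lists used the brightest kept probe set. The members and lists were chosen with earlier results of these data known, and the promoter motifs after the windows were read. Named genes were all members, Dmrt1, Ddx4, Piwil1, Pld6, Tdrkh and the genes of closest profile. Further names came from list members called or of the 4 smallest p at any probe set. Not all of these were described singly. Tdrd7, Sox8, Ptgds, Adgre1, Cx3cr1 and Cd68 were not, nor were endothelial, erythroid and fetal Leydig genes. Other named genes are marked in the text as chosen after their values were seen, apart from marker genes given as levels. No array copied another, with at most 451 equal values in a pair. Control replicate 3 and null replicate 2 share a leading number in their descriptions, whose meaning is not stated. The fit was tested on simulated data. Alternatives were other filters, scalings, variance models, array weights, a replicate block and leaving out each array.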

Additional observations from a re-analysis of the deposited data

How the results depend on the processing

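No member probe set was called under any of the 15 other fits (a count of 0 in each), and the lowest limma adjusted p among the members there was 0.457. Over all probe sets limma called 6 with all arrays, 1 without the intensity trend, 0 with the replicate block and 0 to 4 with single arrays left out (0 without control replicate 3, 1 without control replicate 1, control replicate 2 or null replicate 3, and 2 without null replicate 2). At an unadjusted p under 0.05 the counts were 1333 over all probe sets and 2 among the members. The median difference of the members was -0.60 with all arrays and with the replicate block, and -0.95 (without control replicate 1) to -0.34 (without control replicate 2) when 1 array was left out. Of 132 member differences under these fits 128 kept their direction. The 4 that turned did so without control replicate 2, at 0.039 and 0.11 for the Asz1 probe sets, 0.092 for Mael and 0.088 for Mov10l1. With single arrays left out, the lowest values of these were -0.81, -0.95, -0.65 and -0.40, each without control replicate 1. The cause was not tested. Arrays sharing a replicate number in the titles deviated from their group means with correlations of -0.59, -0.34 and 0.14 for numbers 1, 2 and 3. Null replicate 1 and control replicate 2 reached 0.58, so these values cannot decide whether the numbers pair the arrays. Dim values, such as those of Tdrd1, Tdrd9 and Gtsf1, are limited by signal over background.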
